A study of Mus musculus with 66 samples.

Results

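The genes described here encode voltage-gated and related ion channels in mouse gastrocnemius muscle: every gene on the array whose symbol begins with Kcn, Scn, Cacn or Clcn. On the later of the study's array versions these prefixes gave 86 probe sets of 67 genes. The brightest probe set by mean over 54 arrays stood for each gene, and a gene was kept when at least 2 arrays read above 64.7, a floor set at the 20th percentile of the median array. This left 63 genes of the 8251 that the array annotates to 1 symbol: 39 potassium, 6 sodium, 12 calcium and 6 chloride channel genes. Scnm1 carries the sodium channel prefix but is a splicing factor named as a modifier of a sodium channel. The rule named no time point, except that the late rise of Kcne1l was named in it. Kcne1l is therefore described below without a test, and counts are also given without it. The members were chosen with earlier results of these data known. Most of the 54 arrays came after injury, so taking the brightest probe set favours those that are bright in injured muscle.

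The arrays followed muscle injected with cardiotoxin. This cobra venom peptide lyses fibres, which then regenerate. Untreated gastrocnemius of animals labelled as 8 weeks old gave 2 arrays, and 26 times from 12 h to 40 d after injection gave 2 arrays each. The labels of 10 arrays of an earlier version, which covered 5 of these times, give 100 ul of 10 uM toxin; strain and sex were not given in the sources used here. No label says whether the 2 arrays of a time came from separate animals, so the p-values below measure only the spread between arrays.

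A skeletal muscle fibre is excited when sodium channels open along its membrane, and the calcium channel of the transverse tubule then acts as a voltage sensor that releases calcium from the internal store through the ryanodine receptor. Chloride and inward rectifier potassium channels hold the resting potential, and other potassium channels end the action potential. Fibroblasts, nerve, vessels and infiltrating leukocytes bring channels of their own, among them intracellular chloride/proton exchangers of endosomes and lysosomes. In whole muscle, fewer cells of a type and less RNA per cell cannot be told apart.

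Values are the deposited intensities, on a linear scale on which each array of the later version had a trimmed mean of about 800.5. Log2 changes are fitted after raising values to the floor, and a change was called at an adjusted p under 0.05 over all 11997 probe sets tested. Times were grouped into 6 windows of 6 to 12 arrays, each set against the same 2 control arrays, so the windows are not independent of each other. On each array 76.4% to 83.4% of probe sets read above the floor. On 7 arrays (the second of 12 h and all of 1 d, 2 d and 4 d) the 3′ to 5′ ratio of the b-actin control probe sets was under 0.2 of the lower control's. The summed intensity of 15 fast fibre markers was 375705 to 449084 in the controls and 99290 to 212065 at 3 to 4.5 d. That of 13 macrophage and monocyte markers was 5800 to 8878 in the controls and 72807 to 117607 at 3 to 4.5 d. No marker was listed at 0 on any array; Myh2 of the fast fibre list and Itgam of the macrophage list were below the floor on both control arrays.

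Over the whole course 21 of 63 channel genes changed (33.3%), against 48.7% of all probe sets by the same F test. They were 12 of 39 potassium, 1 of 6 sodium, 4 of 12 calcium and 4 of 6 chloride channel genes. Without Kcne1l, whose place among them is no test, 20 of 62 changed (32.3%). None of the 17 genes above the floor on fewer than 27 arrays passed, while 13 of the 25 above it on all 54 did. The share called was lower than for all probe sets, a difference that was not tested, and the calls fell on the brighter genes.

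**Figure D1:**
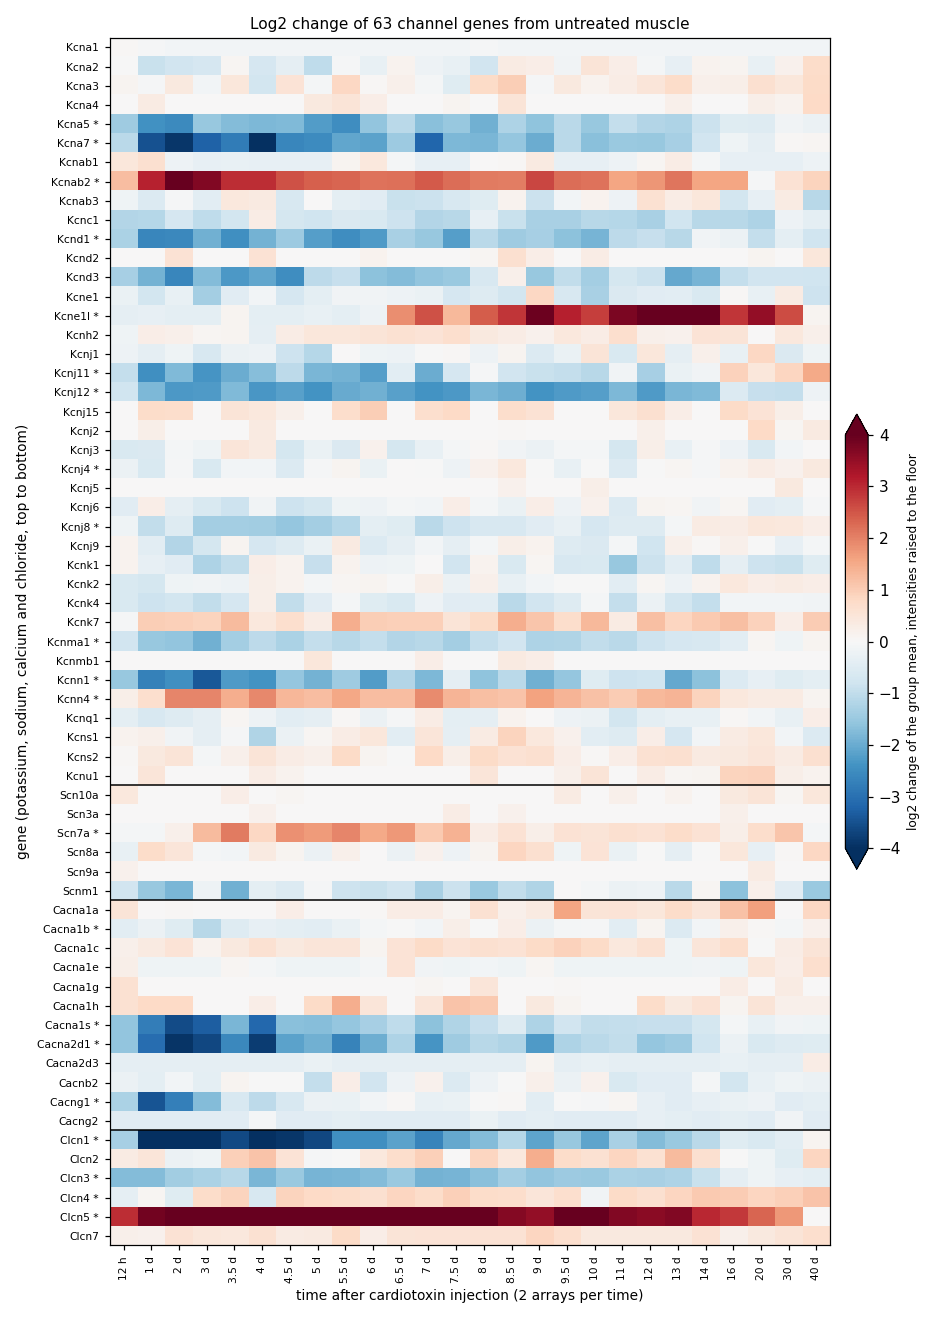
Log2 change of each of the 63 channel genes (rows, by channel class) at the 26 times after injection (columns) against the mean of the 2 control arrays; blue to red spans -4 to 4, and an asterisk marks the 21 genes that passed the F test. Blue rows from 12 h on lighten toward 40 d, a few red rows run through most of the course, and most rows stay pale.

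Against control, 3 channel genes rose and 14 fell at 12 h to 2 d (4.76% and 22.2%, against 17.7% and 18.5% of all probe sets). At 3 to 4.5 d, 7 rose and 16 fell (11.1% and 25.4%, against 22.2% and 18.5%). At 5 to 7.5 d, 8 rose and 12 fell, where 19% and 16.1% of all probe sets did. Counts at 8 to 10 d were 8 and 10, beside 16.9% and 13.8%, and at 11 to 16 d they were 6 and 8, beside 13.9% and 10.2%. At 20 to 40 d, 4 rose and 1 fell, against 5.01% and 2.12%. Without Kcne1l the rises in these last 3 windows were 7, 5 and 3. Rises were thus fewer than in the background up to 16 d, and falls lay close to it. The median channel gene stood at -0.24 on the log2 scale at 12 h to 2 d and at -0.11 at 3 to 4.5 d, where the median of all probe sets was 0.00 in both. Among the falls at 3 to 4.5 d were 9 potassium, 5 calcium and 2 chloride channel genes. The 6 sodium channel genes gave none, but most had little or no room to fall. Scn3a, Scn9a and Scn10a had control means of 13.8, 23.0 and 30.5, under the floor to which values were raised. Scn7a and Scn8a, at 61.9 and 72.1, were close to it. Scnm1, with a control mean of 258, changed by -0.77 and was not called (adjusted p = 0.29). Scaling arrays by their medians instead moved the share of rises among all calls from 54.5% to 44.1% at 3 to 4.5 d, and left 4 channel genes that rose.

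The 16 genes that fell at 3 to 4.5 d differed in when they were lowest and when they returned. Over their group means the median was 48.3% of control at 12 h, 17.8% at 1 d, 27% at 3 d, 29.5% at 5 d, 46.2% at 10 d, 57.5% at 14 d and 80.3% at 16 d. The number under 50% of control was 16 at 3 d, 7 at 12 d, 9 at 13 d, 5 at 14 d and 0 at 16, 20, 30 and 40 d. Because these genes were picked for being low at 3 to 4.5 d, their depth there is a description.

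The proximal promoters of 4 genes are shown because 3 of them, Cacna1s, Clcn1 and Kcna7, fell together and Kcne1l rose late. Each is the 250 bases before an annotated start in RefSeq (build GRCm38.p6), read 5′ to 3′ along the gene: chr1:136052561-136052810 on the plus strand for Cacna1s, chr6:42286435-42286684 plus for Clcn1, chr7:45405710-45405959 plus for Kcna7 and chrX:142306199-142306448 minus for Kcne1l. Capitals mark E-boxes (CANNTG, the letters bound by MyoD family factors among others) and a MEF2-like run (CTA, any 4 bases, TAG); both motifs read the same on both strands, and no matches overlap here.
Cacna1s: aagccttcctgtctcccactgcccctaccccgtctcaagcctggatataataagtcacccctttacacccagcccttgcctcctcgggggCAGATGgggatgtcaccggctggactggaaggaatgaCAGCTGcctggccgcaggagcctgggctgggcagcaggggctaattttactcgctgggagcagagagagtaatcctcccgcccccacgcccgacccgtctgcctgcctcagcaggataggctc
Clcn1: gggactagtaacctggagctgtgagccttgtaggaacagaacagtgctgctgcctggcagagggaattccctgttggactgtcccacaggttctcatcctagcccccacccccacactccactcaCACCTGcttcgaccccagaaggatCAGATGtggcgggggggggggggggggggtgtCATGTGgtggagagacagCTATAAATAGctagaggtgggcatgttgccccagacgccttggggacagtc
Kcna7: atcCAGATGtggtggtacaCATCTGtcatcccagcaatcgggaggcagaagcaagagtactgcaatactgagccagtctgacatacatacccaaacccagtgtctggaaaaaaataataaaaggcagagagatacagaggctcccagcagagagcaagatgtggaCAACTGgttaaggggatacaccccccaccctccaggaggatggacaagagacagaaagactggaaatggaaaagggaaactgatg
Kcne1l: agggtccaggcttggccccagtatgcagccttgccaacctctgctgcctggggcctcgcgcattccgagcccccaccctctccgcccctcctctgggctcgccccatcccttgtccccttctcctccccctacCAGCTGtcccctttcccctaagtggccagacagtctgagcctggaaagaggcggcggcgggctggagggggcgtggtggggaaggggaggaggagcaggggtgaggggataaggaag
Cacna1s had E-boxes 160 and 123 bases before the start. Clcn1 had them 125, 101 and 69 bases before it, with the MEF2-like run 51 bases before it. Kcna7 had 3, at 247, 231 and 85 bases, and Kcne1l had 1, at 117 bases. The annotated Clcn1 gene begins at chr6:42284851, so the window shown for it lies inside the gene, before a later annotated start. An E-box occurred in 66.2% of 32851 promoter windows of this length and in 74.2% of the 66 windows of channel genes, so its presence is common; the MEF2-like run occurred in 3.2% and 4.55%. These matches describe letters and not binding. A promoter window was found for 49 of the 63 genes.

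Of 14 genes for voltage-gated potassium pores 3 passed the F test, and all 3 fell early. Kcna7, a delayed rectifier of the Shaker family prominent in muscle, read 1446 and 1235 on the control arrays. At 3 to 4.5 d its 8 arrays ranged from 23.8 through a median of 147 to 249, all below both controls, with 2 at the floor. The fitted change was -3.25 (SE 0.33, adjusted p = 1.7e-09), a fall of at least 89.5%. The gene was still at 984 and 404 at 12 h, had its lowest group mean at 4 d (62.8 and 23.8), read 153 and 144 at 7 d, and regained 1467 and 949.5 at 16 d. At 20 to 40 d its arrays (886, 1285, 1577 as lowest, median and highest) overlapped the controls. Without control replicate 1 or 2 the call at 11 to 16 d (-1.06) was lost, with adjusted p up to 0.17.

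Kcna5, another Shaker type pore, and Kcnd1 and Kcnd3, pores of rapidly inactivating A-type current, were dimmer. Kcna5 read 424 and 509 in the controls and 93.9, 147 and 194 (lowest, median, highest) at 3 to 4.5 d, a change of -1.70 (SE 0.42, adjusted p = 0.0012). All 8 arrays lay below both controls. Its dimmer second probe set did not pass the F test (adjusted p = 0.403). Kcnd1 read 439 and 362 in the controls and 49.9, 108 and 171 in that window. Its change was -1.93 (SE 0.52, adjusted p = 0.0028), with 2 arrays at the floor. Kcnd3 read 617 and 406 in the controls and 82.3, 102 and 276, a change of -2.15 (SE 0.60, adjusted p = 0.0043). For both Kcnd genes the groups did not overlap, but without control replicate 1 the calls were lost (adjusted p = 0.0518 for Kcnd1 and 0.0885 for Kcnd3), and Kcnd3 did not pass the F test (adjusted p = 0.142).

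Inward rectifiers and the pore genes of ATP-sensitive channels followed. Kcnj11 encodes the pore of the muscle ATP-sensitive potassium channel, which couples the membrane potential to energy state. It read 585 and 749 in the controls and 114, 168 and 364 at 3 to 4.5 d, with a change of -1.77 (SE 0.36, adjusted p = 0.00018) and no overlap. By 16 d it read 1354 and 1153, at 30 d 1220 and 1167, and at 40 d 1963 and 1793. All 6 arrays of 20 to 40 d were above both controls (810, 1194 and 1963 as lowest, median and highest). That difference from control, 0.93 (SE 0.38, adjusted p = 0.15), did not pass the test, whereas the step from 11 to 16 d to 20 to 40 d did (1.13, SE 0.24, adjusted p = 0.00071).

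Kcnj12, an inward rectifier that helps set the resting potential, read 310 and 378 in the controls and 42.7, 75.6 and 133 at 3 to 4.5 d. With 3 of 8 arrays at the floor the change was -2.13 (SE 0.32, adjusted p = 2e-06), a fall of at least 77.1%. At 8 to 10 d its arrays read 11.9, 70.2 and 120, and at 11 to 16 d 23.6, 101 and 248, all below both controls. The one step at which it was called higher was the last (0.94, SE 0.21, adjusted p = 0.0013), and 5 of 6 arrays at 20 to 40 d remained below both controls. Kcnj8, the pore of the vascular ATP-sensitive channel, was looked at after its values were seen. It had a later low: 12 h to 2 d gave -0.56 (SE 0.32, adjusted p = 0.19), and 3 to 4.5 d gave -1.41 (SE 0.31, adjusted p = 0.00045), with 119, 189 and 241 against 534 and 451. The step between these windows was also a fall (-0.85, SE 0.21, adjusted p = 0.0028), the one called fall among channel genes there, against 10.7% of all probe sets that fell. At that step 6 channel genes rose, against 16.9%. For Kcnj2, an inward rectifier central to muscle excitability, only 7 of 54 arrays were above the floor, so its course was not detectable on these arrays. The same held for Kcna1, with 5 arrays. Kcnj4, a further inward rectifier, passed the F test (adjusted p = 0.024) and rose into 20 to 40 d (0.37, SE 0.13, adjusted p = 0.041), but in no window against control; it too was picked out after its values were seen.

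Calcium-activated potassium channels split. Kcnma1, the pore of the large-conductance channel, read 959 and 831 in the controls and 209, 346 and 500 at 3 to 4.5 d, with a change of -1.40 (SE 0.25, adjusted p = 2.9e-05). It returned by 20 to 40 d to 746, 904 and 1043, overlapping the controls. Kcnn1, a small-conductance channel, read 1290 and 1042 and then 103, 235 and 429; its change of -2.40 (SE 0.65, adjusted p = 0.0031) was lost without control replicate 1 (adjusted p = 0.0523). Kcnn4 moved the other way. It encodes the intermediate-conductance channel known from red cells, lymphocytes and macrophages, and read 445 and 254 in the controls. At 3 to 4.5 d it read 754, 1094 and 1328, all above both controls, a 3.19-fold rise (log2 1.67, SE 0.26, adjusted p = 2.8e-06). Its highest arrays were 1525 at 2 d and 1539 at 7 d, and it was back at 299.6 to 446 by 20 to 40 d, a fall of -0.73 from the window before (SE 0.17, adjusted p = 0.0017). At 12 h to 2 d its rise was 0.95 (adjusted p = 0.0046), a call lost without control replicate 2 (adjusted p = 0.261).

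Kcnab2 is a cytoplasmic beta subunit of Shaker type channels with an oxidoreductase fold. It read 72.8 and 48.8 in the controls, 1 of them under the floor. At 12 h it read 103 and 255, at 1 d 557 and 616, and at 2 d 1230 and 1190, its peak. At 3 to 4.5 d its arrays read 388, 533 and 976, at least 8.24-fold above control (log2 3.04, SE 0.22, adjusted p = 1.6e-12), with no overlap. It then declined stepwise, by -0.75 to 5 to 7.5 d (SE 0.13, adjusted p = 5.6e-05) and by -1.25 from 11 to 16 d to 20 to 40 d (SE 0.14, adjusted p = 1.2e-07). Its second probe set also rose (2.34 at 12 h to 2 d, adjusted p = 0.00012). The macrophage markers beside which Kcnab2 and Kcnn4 moved were higher for 12 of 13 at 3 to 4.5 d and 9 of 13 at 20 to 40 d. Other lists rose at 3 to 4.5 d too: 8 of 9 markers of forming fibres were higher, and 6 of 8 fibroblast markers, with 1 lower. At 12 h to 2 d the forming fibre markers had 2 higher and 5 lower, the fibroblast markers 0 and 3, and the macrophage markers 12 and 0. The part of any of these markers in the rises was not tested.

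Kcnk7, a tandem-pore family member, and Kcnh2, the pore of the rapid delayed rectifier of heart, showed small rises near the spread between arrays. Kcnk7 read 145 and 312 in the controls and 238, 398 and 517 at 3 to 4.5 d, overlapping them, with a change of 0.82 (SE 0.33, adjusted p = 0.046). That call was lost on leaving out any of 15 single arrays, control replicate 1 among them (adjusted p up to 0.743). The call was kept at 8 to 10 d (1.07, SE 0.32, adjusted p = 0.01) unless control replicate 1 was left out (adjusted p = 0.465). Kcnh2 read 525 and 552 and then 691, 776 and 979 at 5 to 7.5 d, above both controls on 12 of 12 arrays. Its change of 0.55 (SE 0.21, adjusted p = 0.044) was lost on leaving out any of 11 arrays (adjusted p up to 0.232).

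Kcne1l (also called Kcne5), an auxiliary subunit that modulates voltage-gated potassium channels, was at its highest later than Clcn5, Kcnab2, Kcnn4 and Scn7a. Its controls read 81.4 and 88, and from 12 h to 6 d its arrays stayed between 24.3 and 122. The first readings above that range were 207 and 451 at 6.5 d and 441 and 562 at 7 d; at 7.5 d the pair disagreed (549 and 78.2). It read 409 and 514 at 8 d, 627 and 603 at 8.5 d, 849.6 and 1930 at 9 d, then 817 and 645 at 9.5 d. The 10 d arrays read 632 and 531. The 11 d arrays read 1293 and 1045, with a mean under that of 9 d. Kcne1l had its highest group means at 12 to 14 d: 1607 and 1588, 1789 and 1701, then 1961 and 1650. It fell to 664 and 568 at 16 d, stood at 943 and 992 at 20 d and 493 and 531 at 30 d, and at 40 d read 131 and 64.3, 1 array on either side of the controls. The window changes were 3.02 (SE 0.37) at 8 to 10 d, 3.93 (SE 0.37) at 11 to 16 d and 2.08 (SE 0.39) at 20 to 40 d. Pairs at 9 d and 7.5 d differed more than any pair from 11 to 14 d, and all 20 arrays of 8 to 16 d were above both controls. Kcne1l was not above the floor of the earlier array version on any array.

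**Figure D2:**
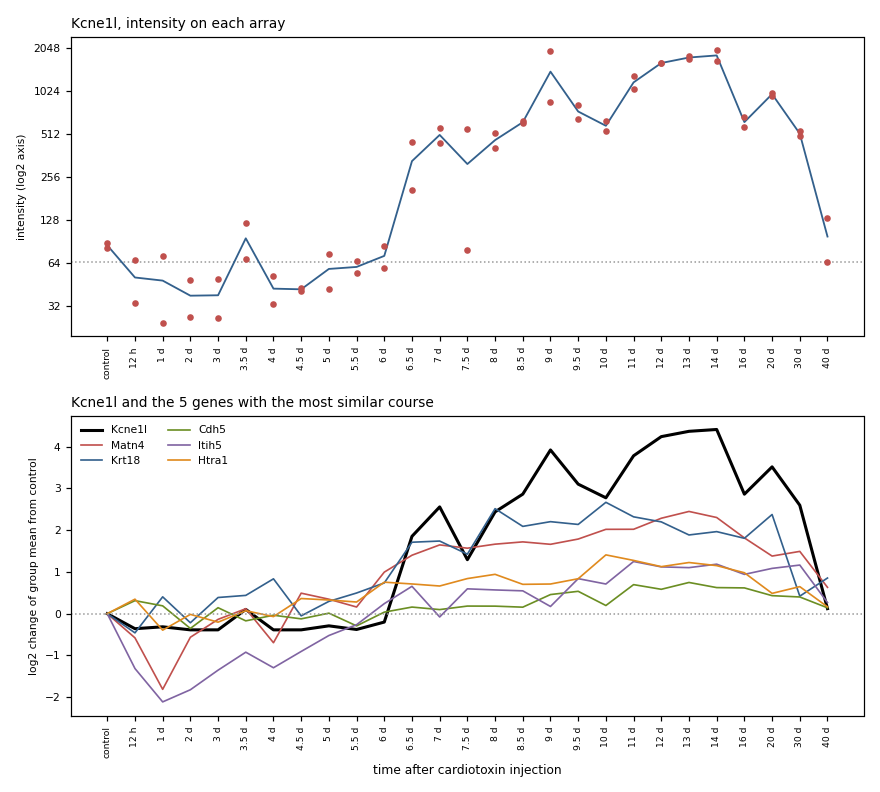
Top: intensity of Kcne1l on each array (points, log2 axis) with the group mean (line) by day after injection, controls at the left and the floor of 64.7 dotted. Bottom: log2 change of the group means against control for Kcne1l and the 5 genes most like it. Kcne1l stays near control to 6 d, is highest at 12 to 14 d and is back near control at 40 d.

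The genes whose group means correlated best with Kcne1l over the 27 groups, of 8086 genes compared, were Matn4 (Pearson r 0.876), Krt18 (0.862), Cdh5 (0.822), Itih5 (0.820) and Htra1 (0.814). These r describe 27 points that share arrays and carry no test. Matn4, a cartilage type matrix protein, had a mean of 328 ± 131 (SD, n = 2) in the controls, 1591 ± 497 at 14 d and 487 ± 1.54 at 40 d. Krt18, an epithelial keratin, went from 108 ± 121 to 457 ± 187 and 207 ± 61.6 at those times. Cdh5, the endothelial cadherin, went from 1875 ± 273 to 2888 ± 370 and 2058 ± 142, a much smaller relative change. Itih5, a hyaluronan-binding serum protein relative, had 1063 ± 62.6, 2423 ± 297 and 1322 ± 480, and Htra1, a secreted protease, had 1481 ± 64.9, 3291 ± 276 and 1667 ± 248. At 11 to 16 d the summed fibroblast markers were 87393 to 139777 against 61156 to 85864 in the controls, with 6 of 8 higher and 1 lower. Endothelial markers were 9641 to 12342 against 7611 to 8261, with 2 of 8 higher, and 0 of 14 nerve and Schwann cell markers were higher. Before Kcne1l rose, at 3 to 4.5 d, fibroblast sums were 84075 to 114272 and endothelial sums 9017 to 12433. At 12 h to 2 d endothelial sums were 7847 to 13738. The part of these markers in the course of Kcne1l was not tested.

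Sodium channels gave 1 change. Scn7a encodes an atypical channel of the family that senses extracellular sodium and is known from glia, Schwann cells and some muscle. It read 72.8 and 51 in the controls, 1 of them under the floor, and was at the floor on 4 of 6 arrays at 12 h to 2 d. At 3 to 4.5 d its 8 arrays read 107, 181 and 309, and at 5 to 7.5 d its 12 arrays read 83.4, 240 and 332, all above both controls. The changes were 1.50 (SE 0.41, adjusted p = 0.0033), at least 2.83-fold, and 1.55 (SE 0.39, adjusted p = 0.0021). At 8 to 10 d it dropped by 1.11 on the log2 scale (SE 0.22, adjusted p = 0.0052), the one called fall at a step where 1.42% of probe sets fell. These intensities lie close to the floor, and at 3 to 4.5 d it was lost without control replicate 2 (adjusted p = 0.0523). At 4 d alone, where the arrays read 107 and 136, the change was 0.81 (SE 0.52, adjusted p = 0.25). Of 14 nerve and Schwann cell markers 1 was higher and 4 were lower at 3 to 4.5 d, with sums of 5432 to 7072 against 7033 to 9398 in the controls. Scn3a and Scn9a, neuronal pores, were above the floor on 4 arrays each, and Scn10a on 14. The main sodium channel of adult muscle, Scn4a, was not analysed here.

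**Figure D3:**
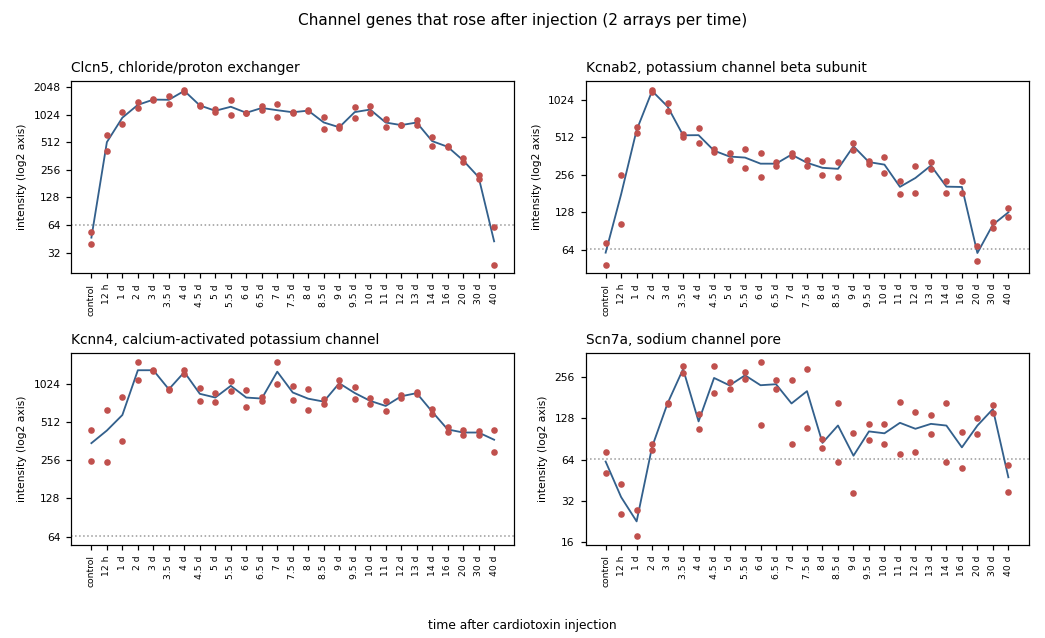
Intensity by array (red points, log2 axis) and group mean (blue line) against time after injection for Clcn5, Kcnab2, Kcnn4 and Scn7a, with the floor dotted. Clcn5 and Kcnab2 leave the floor at 12 h and decline slowly, and Kcnn4 rises from readings of 445 and 254. Scn7a has its highest group mean at 3.5 d and reads lower at 4 d.

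Of the 4 calcium channel genes that passed the F test 3 belong to the complex of the skeletal muscle voltage sensor. Cacna1s, its pore, read 7987 and 10149 in the controls. It read 5146 and 1735 at 12 h, 718 and 797 at 2 d, and 825, 1850 and 3160 (lowest, median, highest) at 3 to 4.5 d, always below both controls. The fall at 3 to 4.5 d was 82.2% (log2 -2.49, SE 0.25, adjusted p = 9.4e-10). Recovery passed the test at 3 steps: 1.08 to 5 to 7.5 d (adjusted p = 1.3e-06), 0.53 to 8 to 10 d (adjusted p = 0.027) and 0.50 to 20 to 40 d (adjusted p = 0.024). At 8 to 10 d it still stood at -0.89 (SE 0.24, adjusted p = 0.0047), which was lost without control replicate 2 (adjusted p = 0.136), and at 20 to 40 d at -0.21 (adjusted p = 0.75).

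Cacna2d1, the alpha-delta subunit that carries the complex to the membrane, read 1609 and 2360 in the controls and 133, 233 and 478 at 3 to 4.5 d. Its fall was 87.8% (log2 -3.04, SE 0.26, adjusted p = 7.6e-11), with 8 of 8 arrays below both controls. At 11 to 16 d its arrays read 460, 988 and 1672, and at 20 to 40 d 985, 1389 and 1659; in the last window 5 of 6 lay below both controls, with a change of -0.53 (SE 0.27, adjusted p = 0.29). Cacng1, the gamma subunit of skeletal muscle, was lowest at 12 h to 2 d. It read 8415 and 7728 in the controls, 431, 1243 and 4753 at 12 h to 2 d, and 2425, 5075 and 5422 at 3 to 4.5 d. The change was -2.49 (SE 0.24, adjusted p = 8.3e-10) in the first window and -1.01 (SE 0.23, adjusted p = 0.00062) in the next. The rise between these windows was 1.48 (SE 0.16, adjusted p = 8.1e-09). All arrays of 12 h to 2 d but the first of 12 h are among those with a low 3′ to 5′ ratio of b-actin. Without the low-ratio arrays the change of Cacng1 in that window was -0.76, so the depth of its low there rests on them. From 5 to 7.5 d its arrays (6152, 7088, 8963) overlapped the controls (-0.19, SE 0.22, adjusted p = 0.59). Across the same step from 12 h to 2 d to 3 to 4.5 d, neither Cacna1s nor Cacna2d1 was called; the difference between the steps of these genes was not tested.

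Other calcium channel genes moved little. Cacna1b, the pore of a neuronal presynaptic channel, read 676 and 697 and then 299, 483 and 615 at 3 to 4.5 d, with 8 of 8 arrays below both controls. Its change was -0.59 (SE 0.22, adjusted p = 0.03) and was lost without control replicate 1, control replicate 2 or the second array at 4.5 d (adjusted p up to 0.159); at 4 d alone it was -0.34 (SE 0.27, adjusted p = 0.38). Cacna1c, the pore of the cardiac and smooth muscle L-type channel, read 219 and 354 and then 339, 475 and 563 at 8 to 10 d. Its change of 0.73 (SE 0.27, adjusted p = 0.036) was lost on leaving out any of 5 arrays, among them control replicate 1 (adjusted p up to 0.538). Cacng2, better known as an auxiliary subunit of glutamate receptors, was called lower in all 6 windows, at 84.4 and 92.8 in the controls and mostly at the floor afterwards. Its sizes, -0.35 to -0.45 on the log2 scale, are bounded by that floor, and the gene did not pass the F test. The subunit Cacnb1 was not analysed here, and neither was the potassium channel Kcnn3.

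**Figure D4:**
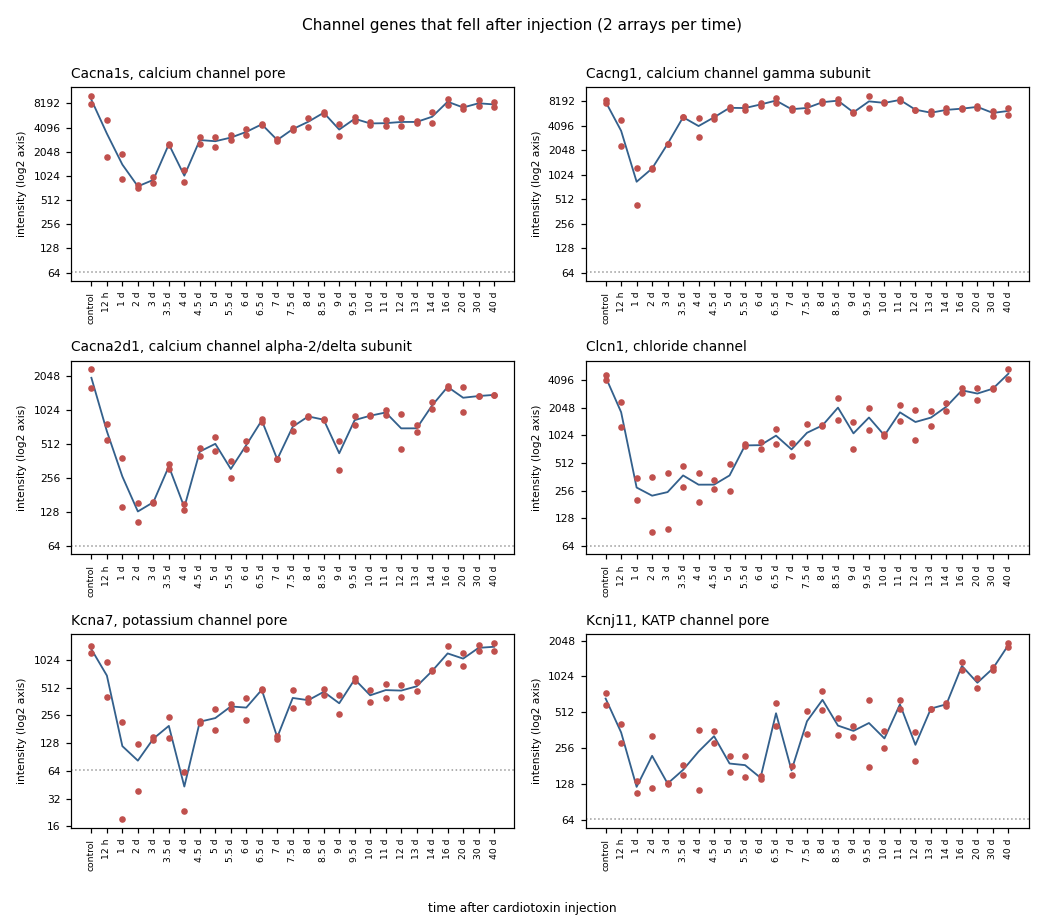
Intensity by array (red points, log2 axis) and group mean (blue line) against time after injection for Cacna1s, Cacng1, Cacna2d1, Clcn1, Kcna7 and Kcnj11, with the floor dotted. All 6 are low by 1 d; Cacng1 is back near its control readings from 5 d, and Kcnj11 ends above them.

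Chloride channel genes held the largest change in each direction among the channel genes at 3 to 4.5 d. Clcn1, the plasma membrane channel that carries most of the resting conductance of a fibre and whose loss causes myotonia, read 4666 and 4128 in the controls. At 12 h it read 2376 and 1270, and at 3 to 4.5 d 97.1, 304 and 472, a fall of 93.7% (log2 -3.99, SE 0.44, adjusted p = 6.9e-09). All arrays from 12 h to 16 d lay below both controls. The climb was slow: 253, 822 and 1341 at 5 to 7.5 d, 733, 1310 and 2574 at 8 to 10 d, 908, 1919 and 3340 at 11 to 16 d, and 2468, 3342 and 5329 at 20 to 40 d. The last step was a rise of 0.91 (SE 0.28, adjusted p = 0.021). At 11 to 16 d the difference from control (-1.21, SE 0.43, adjusted p = 0.036) was lost on leaving out any of 6 arrays, both controls among them (adjusted p up to 0.231). A second, dim probe set of Clcn1 was above the floor on 26 arrays and stayed flat.

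Clcn5, an endosomal chloride/proton exchanger best known from kidney, rose most. Both controls were under the floor (39.3 and 53.9). It read 414 and 614 at 12 h, 812 and 1090 at 1 d, 1425 and 1199 at 2 d, and 1267, 1497 and 1904 at 3 to 4.5 d, with the maximum of 1828 and 1904 at 4 d. This was at least 23.5-fold above control (log2 4.56, SE 0.16, adjusted p = 2.7e-19). It declined to 454, 768 and 928 at 11 to 16 d, to 341 and 309 at 20 d and to 203 and 224 at 30 d, and both 40 d arrays were under the floor (61.2 and 23.7). The last step was a fall of -2.02 (SE 0.10, adjusted p = 7.6e-15). A second probe set of Clcn5 did not change at 3 to 4.5 d (-0.17, adjusted p = 0.85), so the probe sets annotated to this gene disagree. The macrophage marker sums given above moved beside the first, and most markers of forming fibres and fibroblasts were also higher at 3 to 4.5 d. The part of these markers in the course of Clcn5 was not tested.

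The other intracellular exchangers did not move as one. Clcn3, of endosomes and synaptic vesicles, fell: 2711 and 2629 in the controls, 695, 1095 and 1298 at 3 to 4.5 d (-1.42, SE 0.15, adjusted p = 4.2e-09). It was lowest at 5 to 7.5 d, at 626, 771 and 1074 (-1.78, SE 0.15, adjusted p = 3.9e-11), when the voltage sensor genes were already rising, and the step into that window was a fall (-0.35, SE 0.09, adjusted p = 0.0034). It regained 2098 and 2076 at 16 d. Its 3 other probe sets were lower at 3 to 4.5 d too, by -1.89, -1.77 and -1.51. Clcn7, the lysosomal exchanger, read 1043 and 1258 and then 1361, 1528 and 1847, above both controls on 8 of 8 arrays, a change of 0.45 (SE 0.16, adjusted p = 0.022). That call was lost without control replicate 1 (adjusted p = 0.302), and Clcn7 did not pass the F test (adjusted p = 0.103); on the earlier array version it was lower at 2 d, as given below. Clcn2, a plasma membrane channel of many tissues, was called in no window.

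Clcn4, an endosomal exchanger, passed as higher at 3 to 4.5 d (0.47, SE 0.17, adjusted p = 0.028) and at 20 to 40 d (1.00, SE 0.18, adjusted p = 0.00044), but its arrays split by another line. On the 12 arrays of the 6 groups that the earlier array version also measured (control, 12 h, 1 d, 2 d, 4 d and 10 d) it read 300.2 to 710, and on the 42 arrays of all other times 725 to 1414, with no overlap. It was the one channel gene of 63 with such a split. Within those 6 groups the 4 d arrays (411 and 300.2) were lower than control, by -0.63 (SE 0.22, adjusted p = 0.022), and the 10 d arrays differed by -0.13 (SE 0.22, adjusted p = 0.78). The second probe set of Clcn4 gave -0.89 at 3 to 4.5 d (adjusted p = 0.0018). For Clcn4 the set of times and the injury cannot be told apart at the times outside those groups.

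The same within-set comparison, chosen after the values were seen, kept the larger changes. At 4 d alone Cacna1s stood at -3.15 (SE 0.31, adjusted p = 1.8e-09), Cacna2d1 at -3.79 (SE 0.33, adjusted p = 2.1e-10) and Clcn1 at -3.98 (SE 0.55, adjusted p = 7.8e-07). Kcna7 stood at -4.37 (SE 0.42, adjusted p = 9.8e-10), with both arrays at the floor. Clcn5 stood at 4.85 (SE 0.20, adjusted p = 3.7e-17), Kcnab2 at 2.95 (SE 0.28, adjusted p = 8e-10) and Kcnn4 at 1.92 (SE 0.32, adjusted p = 1.7e-05). Both 4 d arrays are among the 7 with a low 3′ to 5′ ratio of b-actin. Without these 7 arrays the calls of Cacna1s (-2.27), Clcn1 (-3.99), Kcna7 (-2.88), Clcn5 (4.46) and Kcnab2 (3.07) at 3 to 4.5 d were kept. That removal leaves 1 array at 12 h to 2 d, where 1 channel gene then rose and 6 fell; there Clcn1 (-0.89, adjusted p = 0.42), Kcna7 (-0.44, adjusted p = 0.57) and Kcnab2 (0.58, adjusted p = 0.21) no longer passed, and the spread of the lone array is taken from the other groups.

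At later steps the channel genes moved as follows. From 3 to 4.5 d to 5 to 7.5 d, 11 rose (10 without Kcne1l) and 3 fell, against 9.16% and 12% of all probe sets. From there to 8 to 10 d, 4 rose and 1 fell (1.03% and 1.42%); without Kcne1l the risers were Cacna1s, Cacna2d1 and Kcnj11. Into 11 to 16 d, 3 rose (2 without Kcne1l) and 2 fell (3.17% and 3.36%). Into 20 to 40 d, 10 rose and 4 fell, or 3 falls without Kcne1l (8.19% and 11.3%). The last 10 included Kcna7 (0.99, SE 0.22, adjusted p = 0.0011) and Kcnma1 (0.74, SE 0.16, adjusted p = 0.0013) with the genes named above. At 20 to 40 d the genes called higher than control, beside Kcne1l, were Clcn4, Clcn5 and Clcn7; the call of Clcn4 was lost without control replicate 1 (adjusted p = 0.0662 for Clcn4), and that of Clcn7 on leaving out any of 23 arrays (adjusted p up to 0.429).

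A list of other genes of excitation and calcium release was set beside these. Of 21 tested, 1 rose and 13 fell at 12 h to 2 d, 3 rose and 10 fell at 3 to 4.5 d (the shares of all probe sets are those given above), and 2 rose and 0 fell at 20 to 40 d; their median change was -1.37, -0.76 and -0.05, against 0.00, 0.00 and 0.02 for all probe sets. The genes named here from this list and the next were chosen after their values were seen. Ryr1, the release channel that Cacna1s contacts, changed by -3.19 (SE 0.28, adjusted p = 8.3e-11) at 3 to 4.5 d, Casq1, the calcium buffer of the store, by -1.88 (SE 0.52, adjusted p = 0.0039), and Fxyd1, a regulator of the sodium pump, by -2.92 (SE 0.25, adjusted p = 5.9e-11). Atp1b3, a sodium pump subunit of many cell types, rose (1.56, SE 0.13, adjusted p = 2.2e-11), as did the sodium/calcium exchanger Slc8a1 (1.45, SE 0.21, adjusted p = 1.2e-06). Of 25 tested genes for other kinds of ion channel, 6 rose and 3 fell at 3 to 4.5 d, beside 22.2% and 18.5% of all probe sets, so the share that rose was near the background. P2rx4, an ATP-gated cation channel, rose by 3.40 (SE 0.35, adjusted p = 1.9e-09), Trpv2, a cation channel, by 2.50 (SE 0.28, adjusted p = 1.1e-08) and Gja1, a gap junction protein, by 1.67 (SE 0.18, adjusted p = 6.6e-09), while Stim1, the calcium store sensor, changed by -1.77 (SE 0.21, adjusted p = 3e-08).

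The earlier array version, with 2 arrays at control, 12 h, 1 d, 2 d, 4 d and 10 d, carried 62 of the 63 genes, of which 16 were bright enough to test above its higher floor of 646.8. Of these 16 genes, 0 were called higher and 5 lower at 12 h, against 9.05% and 11.6% of all probe sets. At 1 d the counts were 0 and 8 (all probe sets 19.3% and 23.9%), and at 2 d 3 and 9 (23.6% and 25%). At 4 d they were 2 and 7 (22.9% and 23%), and at 10 d 0 and 5 (13.3% and 13.2%). A gene above this floor on the 2 control arrays alone enters the test and can only fall, so the filter partly sets the falls. Clcn3 stood at -1.55 at all 5 times. From 1 d on Kcna7 stood at -1.67, Kcnj11 at -0.85 and Kcnma1 at -0.57, their injured arrays all at the floor. At 2 d Cacna1s changed by -3.68 there and by -3.57 on the later version, and at 1 d Cacng1 by -3.26 and -3.46. Clcn7 went against the later version on the same probe set: it changed by -0.62 there at 2 d (SE 0.19, adjusted p = 0.025) and by 0.58 on the later version, and at 4 d by -0.48 and 0.60. For Clcn4 the earlier version's brightest probe set is the second one named above, and it was lower at 4 d (-0.79, SE 0.20, adjusted p = 0.014). At 4 d Clcn5 changed by 1.09 there and by 4.85 on the later version, where the floor is lower. Sample codes of the controls and of 12 h recur on both versions, so these are not independent samples.

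The dimmest genes kept were Kcnj5, Scn3a, Scn9a and Kcnmb1, each above the floor on 4 arrays; those left out were Kcna6 and Scn1a, above it on 1 array each, and Kcnh1 and Kcnk3, on 0. At such intensities a change under the floor could not be detected. Of the bright genes that did not pass the F test, Kcnk4, a tandem-pore channel, read 735 and 846 in the controls (adjusted p = 0.214), and Kcnq1, the pore that Kcne subunits modulate, read 851 and 667 (adjusted p = 0.228). Cacnb2, a calcium channel beta subunit, read 469 and 372 (adjusted p = 0.822). These 3 were chosen after their values were seen, as were Clcn2, Kcnj5, Kcnmb1, Scn3a, Scn9a and Scn10a.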

How the data were processed

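Whole gastrocnemius RNA was measured on 66 arrays of Affymetrix MG-U74 design: 54 of the later version (27 groups of 2) and 12 of the earlier one (6 groups of 2). The deposited values are intensities per probe set as the authors scaled them, 1 column per array; the software that made them is not given in the sources used here. Each column of the later version had a trimmed mean of 800.5, and of the earlier version 600.3, where 16% of values were negative. The number of arrays limits the precision.

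Groups came from sample titles. Values were raised to a floor (64.7, or 646.8 on the earlier version) and taken as log2; control probe sets and probe sets above the floor on fewer than 2 arrays were left out. In R 4.3.3, limma 3.58.1 (lmFit, eBayes) fitted all groups together, window contrasts averaged the groups of a window, and Benjamini-Hochberg adjustment ran over all 11997 probe sets tested (4742 on the earlier version). The step was tested on simulated data. Named genes were, per channel class and window, up to 4 rises and 4 falls with the largest called change whose arrays all lay on 1 side of the control mean, plus textbook fibre channels (Cacna1s, Cacng1, Cacna2d1, Clcn1, Kcnj2, Kcnj11, Kcnj12, Kcnma1, Kcna1) and Kcne1l with the 5 genes most like it; others are marked as chosen after their values were seen. The members and lists were chosen with earlier results of these data known. Symbols of 63 members matched RefSeq. Fits with other scaling, floors, filters, probe set rules, a replicate block and each array left out are in the closing section.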

Additional observations from a re-analysis of the deposited data

How the results depend on the processing

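Of 95 calls of named genes, 28 were kept in every alternative and 58 without each array in turn. The cause of the losses was not tested. These counts include the calls of Kcne1l at 8 to 10, 11 to 16 and 20 to 40 d, which are no test. They add to both counts and are no support for its rise. All of its calls were kept without each array, and those at 8 to 10 and 11 to 16 d in every alternative. With 2 control arrays and many channel genes near the floor, small or dim changes could not be detected. No scaling moved the median of all probe sets by over 0.1, but median scaling lowered the share of rises among calls in the windows from 3 to 4.5 d on from 54.5, 54, 55, 57.6 and 70.3% to 44.1, 43, 42.1, 46.6 and 54.7%.

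In 18 groups the 2 arrays carry the numbers 1 and 2, and the differences between them were compared across times. Over 153 pairs of these groups they correlated at a median of 0.0031 (from -0.168 to 0.161). Of these pairs 5 correlated above 0.1, so no deviation shared by most times was seen for a number. Being made across times, the comparison does not show how the 2 arrays of a time are related. The other 9 groups have both arrays under 1 number. Whether such arrays share an animal cannot be decided by this comparison, which left them out. With a replicate block, 20 channel genes changed over the course instead of 21, 6 rose and 16 fell at 3 to 4.5 d, and every other count stayed within 1.5 times.

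Signs turned as follows. With the 30 and 40 d arrays as control Clcn4 gave -0.59, -0.27, -0.56 and -0.19 in the windows from 3 to 16 d, and Clcn7 -0.15 and -0.093 at 3 to 4.5 and 5 to 7.5 d. With a gene's probe sets averaged, Clcn4 gave -0.21, -0.014 and -0.13 at 3 to 4.5, 5 to 7.5 and 8 to 10 d. With only the time also on the earlier array it gave -0.63 at 3 to 4.5 d and -0.13 at 8 to 10 d. The 7 arrays with a low 3′ to 5′ ratio of b-actin are called low in b-actin here and below. Without them Kcnj12 gave 0.33 and Kcnn4 -0.45 at 12 h to 2 d.

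Counts that moved by over 1.5 times were these. With a change of at least 2-fold required, falls at the 6 windows were 6, 6, 5, 2, 0 and 0, and rises from 3 to 4.5 d on 2, 2, 3, 3 and 0. At the 5 steps this left 0, 0, 1, 0 and 0 rises and 0, 0, 0, 0 and 1 falls, and on the earlier array 0 higher and 11 lower calls, where the main fit gave 5 and 34. Rises at 3 to 4.5 d were 4 with quantile normalization, median scaling, 30 and 40 d as control or 4 d alone; they were 4 at 5 to 7.5 d and 4 at 8 to 10 d with 30 and 40 d as control, and 5 at 8 to 10 d with 10 d alone. Falls at the first step were 2 with quantile normalization, either other floor, a variance trend or without 9 d, 3 with median scaling and 11 without the arrays low in b-actin. Those arrays left out also gave 1 rise and 6 falls at 12 h to 2 d, 2 falls at 20 to 40 d, 7 rises and 3 falls into 8 to 10 d and 7 rises into 11 to 16 d. Without 12 h these last rises were 7 and 5. Falls at 20 to 40 d were 0 with the floor at 0.5 times or the stricter filter. Averaged probe sets gave 1 rise and 2 falls there, and 1 fall into 5 to 7.5 d and into 11 to 16 d, the latter also without 9 d. On the earlier array the F test called 5 genes with the floor at 2 times (0 higher), 5 without a filter (3 higher, 18 lower) and 4 with the stricter filter (3 and 12), against 9.

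Leaving out single arrays gave these ranges of rises and falls: 3 to 5 and 14 to 16 at 12 h to 2 d, 4 to 7 and 13 to 17 at 3 to 4.5 d, 4 to 8 and 11 to 14 at 5 to 7.5 d, 4 to 8 and 6 to 11 at 8 to 10 d, 4 to 7 and 2 to 9 at 11 to 16 d, and 2 to 5 and 0 to 1 at 20 to 40 d. At the steps they were 5 to 9 and 1 to 4, 8 to 11 and 3 to 4, 1 to 7 and 1, 2 to 5 and 2, and 6 to 11 and 4. The F test called 18 to 23, and on the earlier array 5 to 12, with 3 to 9 higher and 20 to 37 lower calls.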
